A study of Homo sapiens with 12 samples.

Results

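The RAB genes encode small GTPases that mark the membranes of the secretory and endocytic pathways. They were taken as every protein-coding gene of the deposited tables whose symbol is RAB followed by a number, with or without letters. This rule gave 63 genes of 58735 in all, of which 19951 are protein-coding. RNA sequencing had measured HEK293T, a wild-type-labelled line of human embryonic kidney origin with the SV40 large T antigen, grown in DMEM with 10% FBS. All 4 groups were transiently transfected, control cells with the empty plasmid pcDNA3.1 and the others with a plasmid that expressed VGLL2-NCOA2, TEAD1-NCOA2 or YAP5SA. There were 3 libraries per group and 12 in all. VGLL2-NCOA2 and TEAD1-NCOA2 join VGLL2, a cofactor of TEAD proteins, or the TEAD transcription factor TEAD1 itself to NCOA2, a coactivator of nuclear receptors. YAP5SA is a form of YAP that its inhibitory LATS kinases cannot phosphorylate. Expression from transfected plasmids in 1 cell line is a limited model, because levels exceed those of the cell's own genes and not every cell takes up the plasmid.

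A RAB protein cycles between a GDP-bound form, kept soluble in the cytosol by GDI, and a GTP-bound form that sits on a membrane by its prenyl groups. Exchange factors (GEFs) load GTP, GTPase-activating proteins (GAPs) switch the RAB off, and effectors that bind the GTP form carry, tether or fuse the vesicle. Each membrane has its own RABs, such as RAB1 between the endoplasmic reticulum (ER) and the Golgi, RAB5 on early endosomes, RAB11 on recycling endosomes, RAB7 on late endosomes and RAB3 and RAB27 on secretory vesicles.

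Levels are in FPKM (fragment counts divided by gene length and sequencing depth), given as mean ± SD over 3 libraries. Differences are on the log2(FPKM + 1) scale with the standard error from limma, a linear model fitted to all genes, and p-values were adjusted by the Benjamini-Hochberg method over all 15954 genes tested. A gene counts as called where this p was below 0.05 and the difference exceeded 1 in size. The tables hold 1 group each and may have been scaled separately, and a level compared between groups carries that limit. In 9 libraries the values were whole fragments, 14140996 to 15559838 in genes, while the depth of the YAP5SA libraries is unknown. VGLL2 and NCOA2 lay at 247 to 269 and 607 to 621 FPKM with VGLL2-NCOA2, NCOA2 and TEAD1 at 246 to 279 and 49.7 to 58.1 with TEAD1-NCOA2, and YAP1 at 3369 to 5779 with YAP5SA, where no control library exceeded 6.39 for any of the 4 genes. YAP5SA replicate 3 also held 54.4 FPKM of VGLL2 and 141 of NCOA2, both listed at 0 in YAP5SA replicates 1 and 2, so that this library labelled YAP5SA also held transcripts of both genes joined in VGLL2-NCOA2. Leaving it out left 8 of the 9 RAB genes called with YAP5SA against control, 2 higher and 6 lower (17.2% of all genes), and lost RAB11A. The RAB genes called between YAP5SA and each fusion were the same 4 and 1 (3.73 and 5.65% of all genes). Replicate 3 of control and of YAP5SA also stood apart within its group in overall profile, with correlations of 0.946 and 0.948, and of 0.913 and 0.917. Of the checked cell type genes, PTPRC, a leukocyte marker, did not exceed 0.013 FPKM, and the summed level of 8 genes known from HEK293 lines was 293 to 367 in control, 137 to 138 in VGLL2-NCOA2 cells, 113 to 137 with TEAD1-NCOA2 and 53.8 to 92.2 with YAP5SA. The share of FPKM on the mitochondrial chromosome, weighted by length, was 9.97 to 12.6% in control and 3.6 to 9.83% with the plasmids. The part of these shifts in the RAB differences was not tested. RNA was measured in bulk, and fewer cells with a transcript cannot be told apart from less of it per cell.

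The RAB genes of the control cells ranged from unmeasured to abundant. RAB1B was the most abundant at 71.1 ± 9.82 FPKM, followed by RAB7A at 65.1 ± 6.93, RAB10 at 47.6 ± 1.44, RAB1A at 34.4 ± 5.72 and RAB11B at 28.7 ± 4.27. These 5 act in ER-to-Golgi transport (RAB1A and RAB1B), late endosome fusion (RAB7A), delivery to the plasma membrane (RAB10) and endosome recycling (RAB11B). Of the 63 genes, 47 reached 1 FPKM in 3 or more libraries and were tested. The 16 others were RAB17, RAB19, RAB25, RAB27B, RAB30, RAB33A, RAB37, RAB3C, RAB41, RAB42, RAB43, RAB44, RAB4B, RAB6C, RAB6D and RAB7B. Among these, RAB27B, which acts in secretion, was listed at 0 in all 3 control libraries and at no more than 0.0644 FPKM elsewhere. RAB42, which lies over the oppositely transcribed TAF12, was listed at 0 in every control library. RAB6C and RAB6D are near-identical retrocopies of RAB6A, and RAB4B and RAB43 lie within read-through genes, and their reads cannot be assigned with certainty. With no strand setting known, the same holds for reads of overlapping gene pairs named below.

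In control the 63 RAB genes summed to 629 ± 47.1 FPKM. The sum was 506 ± 11 in VGLL2-NCOA2 cells, 508 ± 18.7 with TEAD1-NCOA2 and 453 ± 26.1 with YAP5SA. On this scale every library of the 3 plasmids lay below the lowest control library. As a share of all FPKM of the library the order was the opposite, with 0.159% ± 0.0088 in control and 0.195% ± 0.0025, 0.184% ± 0.0101 and 0.202% ± 0.0216 in the same order of plasmids, and all 9 plasmid libraries above the highest control library. The direction of the family total therefore depends on the scale. By membrane, the 17 RAB genes of ER-to-Golgi traffic summed to 188 ± 13.5 FPKM in control and 131 ± 3.14, 141 ± 5.88 and 114 ± 6.89 with the plasmids in that order. The 16 of early and recycling endosomes summed to 181 ± 16.3 FPKM in control and 139 ± 1.21, 155 ± 6.19 and 138 ± 7.43 with the plasmids in that order. The 12 of late endosomes and lysosome-related organelles summed to 139 ± 12 FPKM in control and 139 ± 6.17, 129 ± 5.51 and 119 ± 9.86 with the plasmids in that order. The 13 of secretion and the plasma membrane summed to 88.1 ± 4.99 FPKM in control and 66.4 ± 3.13, 56.1 ± 2.35 and 53.9 ± 1.54 with the plasmids in that order. The 5 of cilia and the SOCS-box type summed to 32.6 ± 2.44 FPKM in control and 30.3 ± 1.22, 28.2 ± 1.12 and 28 ± 2.37 with the plasmids in that order. As a share of all FPKM, the mean of every class with every plasmid lay above that of control except secretion with TEAD1-NCOA2, at 0.0203% ± 0.001 against 0.0223% ± 0.00146.

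Single RAB genes moved in both directions under each plasmid, and which plasmid moved them differed from gene to gene. VGLL2-NCOA2 against control gave 2 called RAB genes of 47 tested, 1 higher and 1 lower, where 11.3% of all genes tested were called (6.3% higher and 5.03% lower). TEAD1-NCOA2 gave 6, 1 higher and 5 lower (9.4% of all genes, 2.89% higher and 6.51% lower). YAP5SA gave 9, 2 higher and 7 lower (20.5% of all genes, 10.4% higher and 10% lower). By the share called, RAB genes lay at 4.26, 12.8 and 19.1% in the 3 comparisons. With the adjusted p alone, 8 RAB genes were higher and 15 lower with VGLL2-NCOA2, 6 and 16 with TEAD1-NCOA2, and 8 and 24 with YAP5SA. Over all genes these shares were 28.9% higher and 25% lower, 20.6 and 27.9%, and 32.9 and 30.2%.

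The median log2 difference of the RAB genes was -0.07 in VGLL2-NCOA2 cells, -0.20 with TEAD1-NCOA2 and -0.34 with YAP5SA, against 0.01, -0.09 and 0.03 over all genes tested. With every library rescaled to the same sum (the TPM scale) the median of all genes shifted to 0.57, 0.35 and 0.77, and that of the RAB genes to 0.47, 0.29 and 0.37. The RAB median thus lay below that of all genes on both scales, by 0.09, 0.11 and 0.37 on the FPKM scale and by 0.10, 0.06 and 0.40 on the TPM scale. Over protein-coding genes alone the FPKM-scale medians were -0.05, -0.13 and -0.07, nearer those of the RAB genes. Among genes with at least 1 FPKM in all 3 control libraries, RAB medians were -0.16, -0.20 and -0.42. Those of all such genes were -0.12, -0.20 and -0.16, so that the gap depends on the genes compared. The TPM scale turned the split of RAB calls to 9 higher and none lower, 5 and 5, and 8 and 3. Of all genes it called 29% (27.7% higher and 1.28% lower), 19.7% (16.1 and 3.57%) and 41.6% (38.9 and 2.71%). That of the adjusted p alone became 26 and 2, 16 and 6, and 22 and 8 RAB genes, where all genes had 51.8% higher and 6.03% lower, 38.5 and 9.39%, and 60.5 and 8.07%. Of the RAB genes lower by the adjusted p alone, 8 of 15, 4 of 16 and 9 of 24 had a positive difference on the TPM scale. None of the higher ones turned negative. RAB10, for example, was -0.42 ± 0.08, -0.37 ± 0.08 and -0.60 ± 0.08 on the FPKM scale and 0.18, 0.14 and 0.19 on the TPM scale, so that no direction is given for it. The calls described below kept their sign on both scales.

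**Figure D1:**
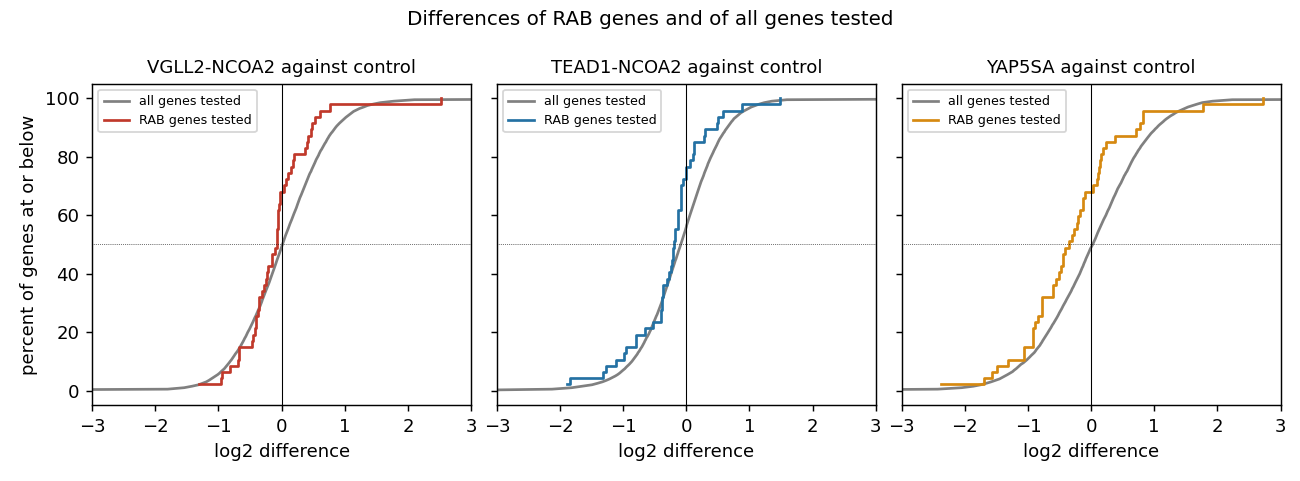
Percent of genes (y axis) with a log2 difference from control at or below the value on the x axis, for the 47 RAB genes tested (colour) and all 15954 genes tested (grey), on the log2(FPKM + 1) scale. The RAB curve crosses 50% at -0.07 in VGLL2-NCOA2 cells, -0.20 with TEAD1-NCOA2 and -0.34 with YAP5SA, to the left of the grey curve.

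**Figure D2:**
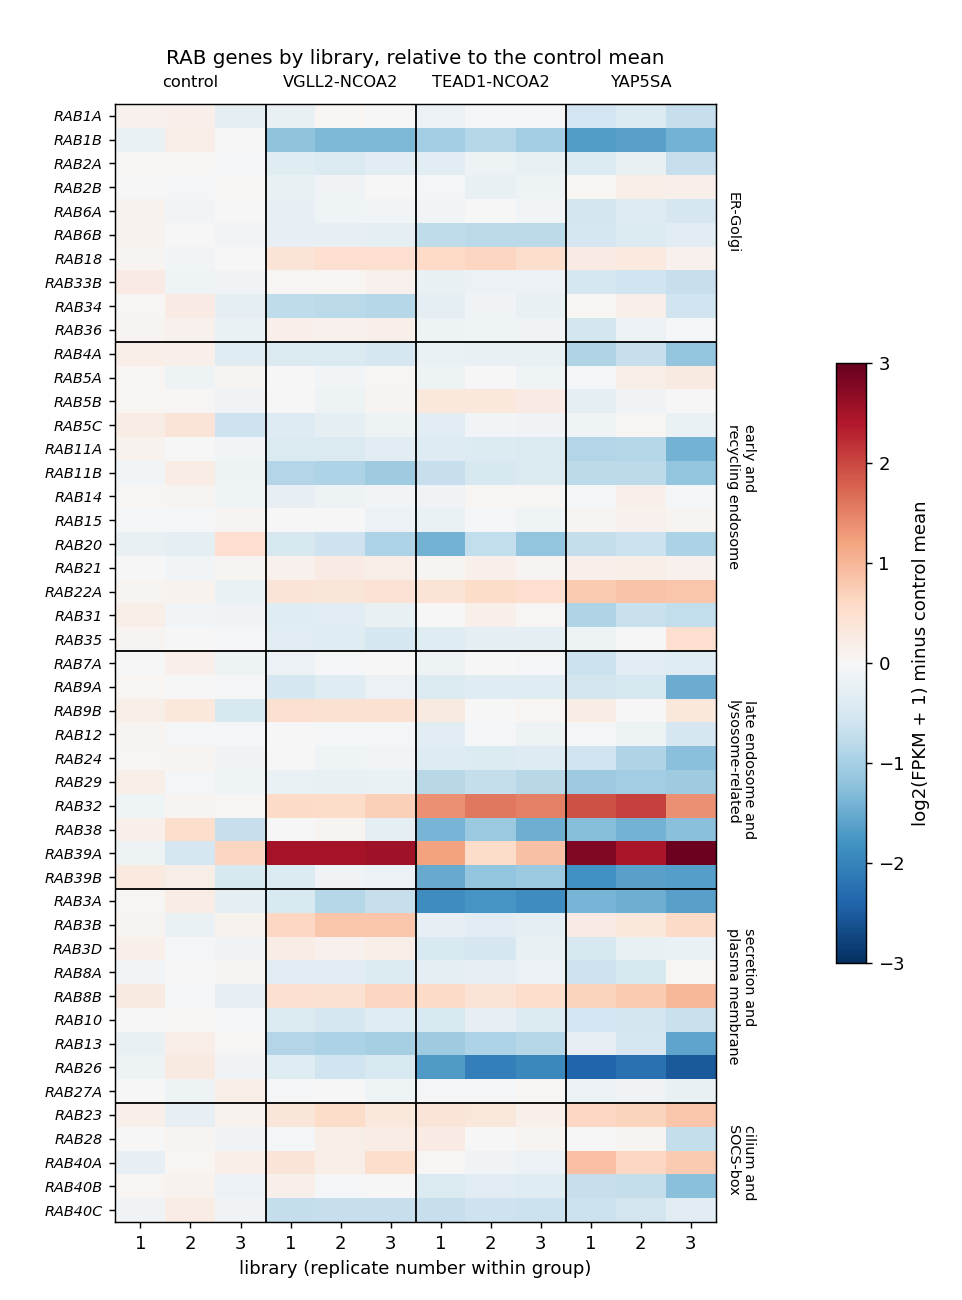
Each of the 47 RAB genes tested (rows, grouped by membrane) in each of the 12 libraries (columns), as log2(FPKM + 1) minus the control mean (red higher, blue lower). RAB39A and RAB32 are the strongest red rows, and RAB26, RAB3A and RAB1B are blue in all 9 plasmid libraries on this scale.

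RAB genes of late endosomes and lysosome-related organelles moved in both directions. Of 12 such genes 10 were tested. VGLL2-NCOA2 gave 1 called higher, TEAD1-NCOA2 1 higher and 2 lower, and YAP5SA 2 higher and 3 lower.

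RAB39A (ENSG00000179331, chromosome 11, 107928503 to 107963482), a RAB of late endosomes and phagosomes, had the largest increase of the tested RAB genes on the log2(FPKM + 1) scale. Its 250 bases before the RefSeq start site (chr11:107928198-107928447, GRCh38.p14, plus strand, 5′ to 3′) are shown because this gene moved furthest. Capitals mark the Sp/KLF-type GC box GGGCGG on either strand, which occurs 6 times, while GGAATG, the core bound by TEAD factors, does not occur on either strand.
RAB39A: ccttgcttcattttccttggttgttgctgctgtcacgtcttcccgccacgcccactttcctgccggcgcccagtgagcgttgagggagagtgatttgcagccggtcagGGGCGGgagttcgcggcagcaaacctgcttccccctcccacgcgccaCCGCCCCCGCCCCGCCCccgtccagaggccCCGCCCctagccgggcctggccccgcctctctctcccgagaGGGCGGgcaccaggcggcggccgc
RAB39A was at 0.487, 0.175 and 1.59 FPKM in the control libraries. It was at 8.39, 8.29 and 8.7 in VGLL2-NCOA2 cells, 2.8, 1.42 and 2.06 with TEAD1-NCOA2 and 10.3, 8.09 and 11.6 with YAP5SA. All libraries of VGLL2-NCOA2 and YAP5SA lay far above control, whereas 1 library of TEAD1-NCOA2 lay below control replicate 3. The log2 difference was 2.52 ± 0.26, limma adjusted p = 3.67e-05 with VGLL2-NCOA2 and 2.72 ± 0.26, limma adjusted p = 9.81e-06 with YAP5SA. TEAD1-NCOA2 gave 0.88 ± 0.26, limma adjusted p = 0.0167, under the threshold on size, and 1.20, a call, without control replicate 3. The control values stood on 12, 4 and 39 fragments, against 240, 249 and 258 with VGLL2-NCOA2 and 80, 41 and 63 with TEAD1-NCOA2. RAB39A passed the filter only through the plasmid groups, since its control mean was 0.75 FPKM.

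RAB39B (ENSG00000155961, chromosome X, 155258241 to 155264589), its X-linked paralog known for neuronal vesicle traffic, moved the other way. It was at 7.17, 6.63 and 3.83 FPKM in control and at 4.05, 5.25 and 4.91 with VGLL2-NCOA2, which overlap. With TEAD1-NCOA2 it was at 1.37, 1.96 and 2.09 and with YAP5SA at 0.911, 1.16 and 1.11, below every control library. It was not called with VGLL2-NCOA2 (-0.23 ± 0.19, limma adjusted p = 0.32). It fell with TEAD1-NCOA2 (-1.27 ± 0.19, limma adjusted p = 0.000326) and with YAP5SA (-1.70 ± 0.19, limma adjusted p = 2.43e-05).

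RAB32 (ENSG00000118508, chromosome 6, 146543693 to 146554965), which with RAB38 sends cargo to melanosomes and also sits on mitochondria and lysosomes, rose with all 3 plasmids by the adjusted p. The stretch of 110 bases that ends before the start given in the files (chr6:146543583-146543692, GRCh38.p14, plus strand) is shown as the promoter of the other RAB gene called higher against control. It holds 2 GC boxes, in capitals, and no GGAATG.
RAB32: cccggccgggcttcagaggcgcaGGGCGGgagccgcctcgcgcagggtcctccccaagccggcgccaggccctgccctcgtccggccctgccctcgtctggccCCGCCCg
RAB32 was at 5.92, 6.96 and 6.74 FPKM in control and 10.1, 10.01 and 11.3 with VGLL2-NCOA2. It was at 18.5, 21.4 and 20.4 with TEAD1-NCOA2 and 27.2, 30.2 and 18.6 with YAP5SA. No plasmid library reached down to the control range, and those of VGLL2-NCOA2 lay between control and the other plasmids. The rise was 3.08-fold of the control mean with TEAD1-NCOA2 (1.49 ± 0.15, limma adjusted p = 3.35e-05) and 3.87-fold with YAP5SA (1.78 ± 0.15, limma adjusted p = 4.64e-06), both called. With VGLL2-NCOA2 it was 1.6-fold (0.61 ± 0.15, limma adjusted p = 0.00584), under the threshold on size and 1.24, a call, on the TPM scale. RAB32 ranked 28th of the 63 genes by mean FPKM in control, 17th in VGLL2-NCOA2 cells, 8th with TEAD1-NCOA2 and 3rd with YAP5SA.

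RAB38 (ENSG00000123892, chromosome 11, 88113242 to 88175467) was at 2.43, 3.43 and 0.916 FPKM in control and 2.1, 2.25 and 1.52 with VGLL2-NCOA2. It was at 0.175, 0.434 and 0.123 with TEAD1-NCOA2 and 0.266, 0.151 and 0.283 with YAP5SA, all below the lowest control library. The log2 difference was -1.32 ± 0.26, limma adjusted p = 0.00185 with TEAD1-NCOA2 and -1.32 ± 0.26, limma adjusted p = 0.00113 with YAP5SA. With VGLL2-NCOA2 it was -0.07 ± 0.26, limma adjusted p = 0.84. The TEAD1-NCOA2 values stood on 4, 10 and 3 fragments and those of control on 48, 63 and 18. RAB38 reached 1 FPKM in 5 libraries, all of control or VGLL2-NCOA2. It passed the filter only through the groups where it was high, which favours a difference in these tests.

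RAB29 (ENSG00000117280, chromosome 1, 205767986 to 205775460), which binds the kinase LRRK2 and brings it to the Golgi and to stressed lysosomes, was at 16.5, 14 and 13.2 FPKM in control. It was at 12.4, 12.3 and 12.5 in VGLL2-NCOA2 cells, 7.67, 8.43 and 7.69 with TEAD1-NCOA2 and 6.32, 6.48 and 6.42 with YAP5SA, so that every plasmid library lay below control. It fell past the threshold on size with YAP5SA alone (-1.06 ± 0.08, limma adjusted p = 2.92e-06). TEAD1-NCOA2 gave -0.80 ± 0.08, limma adjusted p = 3.74e-05 and VGLL2-NCOA2 -0.21 ± 0.08, limma adjusted p = 0.0509. The YAP5SA difference was -0.98 without control replicate 1, -0.94 after quantile normalization and -0.36 on the TPM scale, no longer calls.

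The remaining late endosome genes were steadier. RAB7A, the main RAB of late endosomes and lysosome fusion, was at 65.1 ± 6.93 FPKM in control and 61.6 ± 3.78, 61.4 ± 3.07 and 47.8 ± 5.63 with VGLL2-NCOA2, TEAD1-NCOA2 and YAP5SA. It became the most abundant RAB gene in all 3 plasmid groups, as RAB1B dropped below it. Its difference with YAP5SA was -0.44 ± 0.11, limma adjusted p = 0.00574, and 0.36 on the TPM scale. RAB9A, which returns receptors from late endosomes to the Golgi, was -0.35 ± 0.21, -0.37 ± 0.21 and -0.84 ± 0.21. RAB24, an autophagy-related RAB that overlaps MXD3 on the same strand, was -0.92 ± 0.14, limma adjusted p = 0.000185 with YAP5SA. RAB12 and RAB9B did not pass the adjusted p with any plasmid. The paralog RAB7B was at no more than 0.323 FPKM in any library and was not tested.

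**Figure D3:**
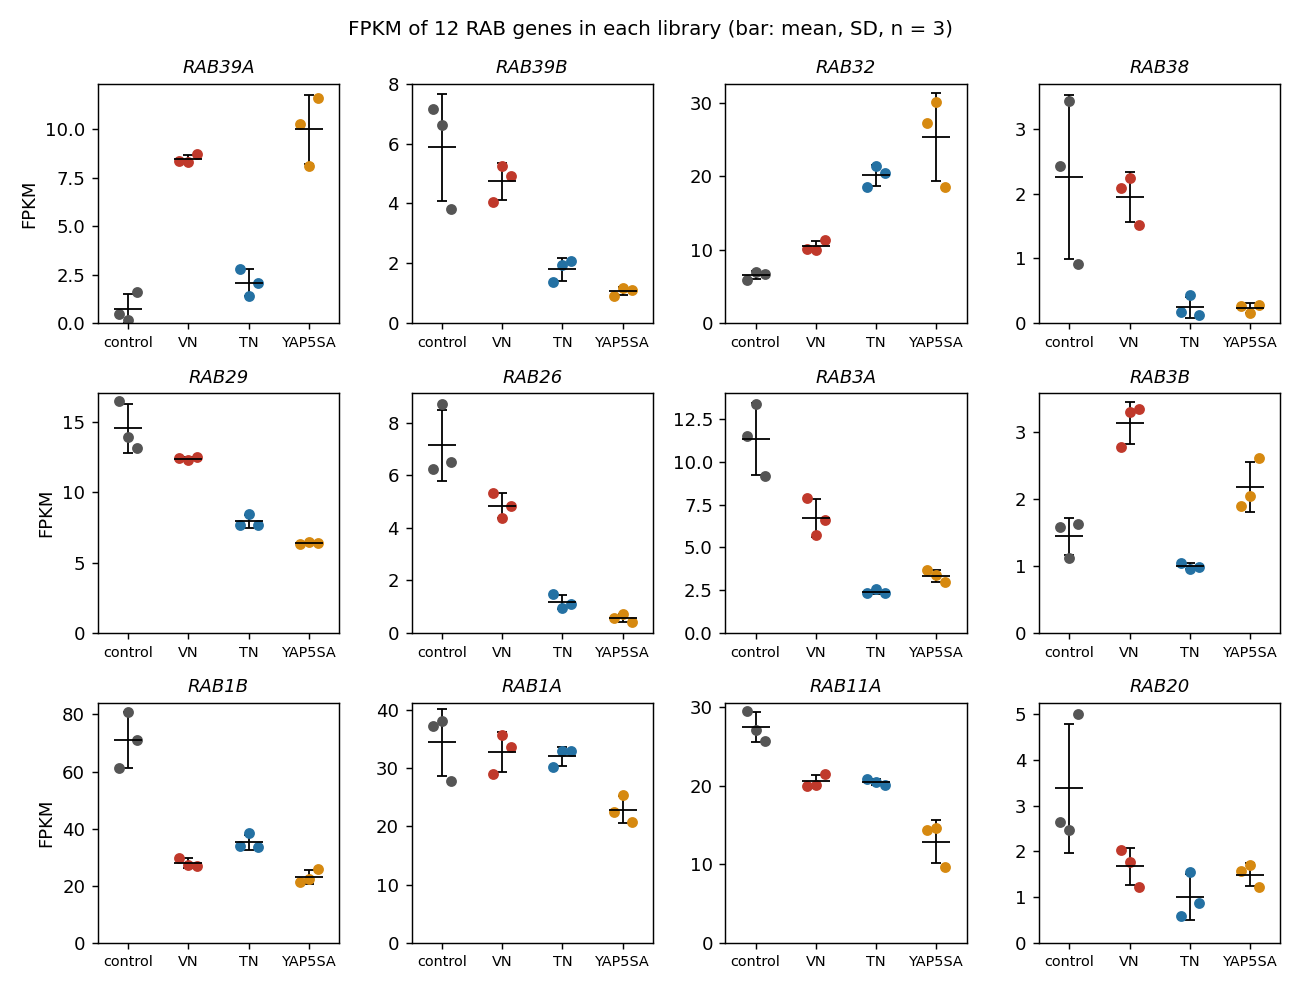
FPKM (y axis, from 0) of 12 RAB genes in each library (points), with the mean and SD of 3 libraries (bars), for control, VGLL2-NCOA2 (VN), TEAD1-NCOA2 (TN) and YAP5SA. RAB39A is high with VN and YAP5SA, RAB32 with TN and YAP5SA, and RAB26, RAB3A, RAB38 and RAB39B are low with TN and YAP5SA.

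Among the 13 RAB genes of secretion and the plasma membrane, 9 were tested. TEAD1-NCOA2 and YAP5SA each gave 2 called lower, the vesicle RABs RAB26 and RAB3A. With VGLL2-NCOA2, 4 were lower and 2 higher by the adjusted p alone.

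RAB26 (ENSG00000167964, chromosome 16, 2140803 to 2154165), a RAB of secretory granules and synaptic vesicles, had the largest decrease of the tested RAB genes on the log2(FPKM + 1) scale. It was at 6.24, 8.7 and 6.5 FPKM in control and 5.32, 4.36 and 4.84 with VGLL2-NCOA2. With TEAD1-NCOA2 it was at 1.49, 0.946 and 1.11 and with YAP5SA at 0.559, 0.71 and 0.418, and none of the 4 groups overlapped. The control mean was 6.05 times that of TEAD1-NCOA2 (-1.90 ± 0.14, limma adjusted p = 5.39e-06) and 12.7 times that of YAP5SA (-2.37 ± 0.14, limma adjusted p = 6.75e-07). VGLL2-NCOA2 gave -0.47 ± 0.14, limma adjusted p = 0.014, and 0.06 on the TPM scale, so that its direction there is not given.

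RAB3A (ENSG00000105649, chromosome 19, 18196784 to 18204074), which controls synaptic vesicle exocytosis, also fell with TEAD1-NCOA2 and YAP5SA. The 218 bases before the start given in the files (chr19:18204075-18204292, GRCh38.p14, minus strand, 5′ to 3′) are shown as the promoter of a gene that fell. They hold 2 GC boxes, in capitals, and no GGAATG, as do those of RAB32.
RAB3A: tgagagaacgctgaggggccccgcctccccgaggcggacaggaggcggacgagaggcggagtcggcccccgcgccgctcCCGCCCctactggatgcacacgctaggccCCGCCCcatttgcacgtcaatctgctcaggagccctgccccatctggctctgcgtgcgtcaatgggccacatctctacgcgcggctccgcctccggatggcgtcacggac
RAB3A was at 11.5, 13.4 and 9.15 FPKM in control and 7.88, 5.7 and 6.59 with VGLL2-NCOA2. It was at 2.36, 2.55 and 2.34 with TEAD1-NCOA2 and 3.66, 3.39 and 2.96 with YAP5SA. The groups did not overlap, and TEAD1-NCOA2 held the lowest libraries. The log2 difference was -0.67 ± 0.14, limma adjusted p = 0.0019 in VGLL2-NCOA2 cells, -1.84 ± 0.14, limma adjusted p = 5.99e-06 with TEAD1-NCOA2 and -1.50 ± 0.14, limma adjusted p = 7.18e-06 with YAP5SA, called in the last 2. On the TPM scale the YAP5SA difference was -0.90, no longer a call. RAB3A overlaps the oppositely transcribed MPV17L2, which reached 17.7 FPKM.

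RAB3B, a paralog with the same role in exocytosis, did not follow RAB3A. It was at 1.57, 1.12 and 1.63 FPKM in control, 2.77, 3.29 and 3.33 in VGLL2-NCOA2 cells, 1.05, 0.96 and 0.98 with TEAD1-NCOA2 and 1.89, 2.04 and 2.6 with YAP5SA. It passed the adjusted p with VGLL2-NCOA2 (0.76 ± 0.12, limma adjusted p = 0.000323) and YAP5SA (0.38 ± 0.12, limma adjusted p = 0.0141), with no overlap with control. On the TPM scale these differences were 1.5 and 1.20, both calls, while that of YAP5SA turned to -0.05 after a correction for gene length and GC content, so that its direction is not given. With TEAD1-NCOA2 it was -0.28 ± 0.12, limma adjusted p = 0.0659. RAB3D, which acts on exocrine granules and overlaps TMEM205 on the same strand, was 0.18 ± 0.11, -0.40 ± 0.11 and -0.30 ± 0.11. RAB3C was at no more than 0.405 FPKM in any library.

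RAB37, a RAB of mast cell granules, was under the filter and not tested. It was at 1.03, 1.35 and 0.779 FPKM in control, 0.303, 0.12 and 0.268 in VGLL2-NCOA2 cells, 0.0126, 0 and 0.0709 with TEAD1-NCOA2 and 0.0641, 0.127 and 0.0684 with YAP5SA. The control libraries lay above all 9 others, on 70, 86 and 53 fragments against 24, 10 and 22 and 1, 0 and 6 with the 2 fusions. It was picked out after its values were seen. RAB27A, which docks melanosomes and secretory granules, stayed between 0.984 and 1.62 FPKM and did not pass the adjusted p. RAB8B, a RAB of exocytosis, was higher by the adjusted p with each plasmid (0.52 ± 0.13, 0.50 ± 0.13 and 0.82 ± 0.13), and its paralog RAB8A with none in either direction. RAB13, a RAB of tight junctions, was -0.94 ± 0.28, limma adjusted p = 0.015 with VGLL2-NCOA2 and -0.95 ± 0.28, limma adjusted p = 0.0157 with TEAD1-NCOA2, just inside the threshold on size.

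**Figure D4:**
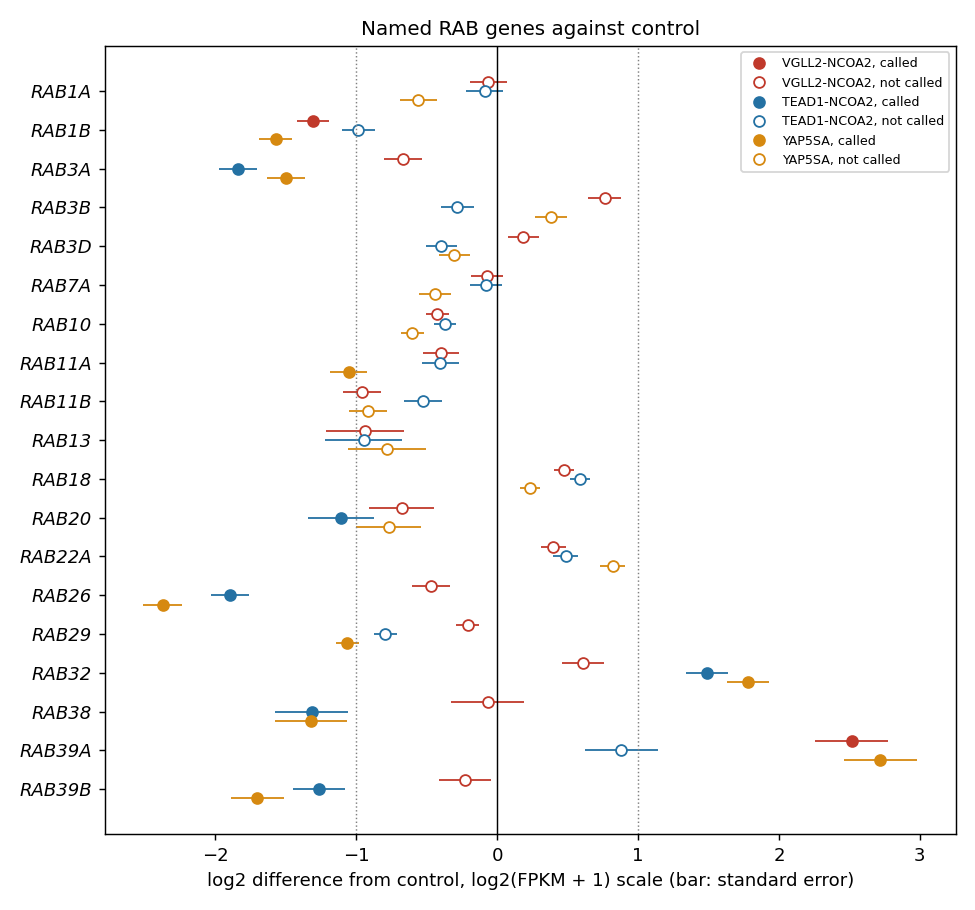
Log2 difference from control (x axis, log2(FPKM + 1) scale) with its standard error for the named RAB genes tested, by plasmid (colour). Filled points were called, and dotted lines mark the size threshold of 1. RAB39A and RAB32 lie to the right and RAB26, RAB3A, RAB1B, RAB38 and RAB39B to the left with at least 1 plasmid.

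In ER-to-Golgi traffic 10 of 17 RAB genes were tested, and the main change was that of RAB1B. RAB1B (ENSG00000174903, chromosome 11, 66268533 to 66277492), which recruits tethers for vesicles leaving the ER, was at 61.2, 80.8 and 71.2 FPKM in control. It was at 29.8, 27.2 and 26.9 in VGLL2-NCOA2 cells, 33.8, 38.3 and 33.7 with TEAD1-NCOA2 and 21.3, 22.2 and 26 with YAP5SA. All 9 plasmid libraries lay below the lowest control library, and RAB1B dropped from the most abundant RAB gene to rank 4, 3 and 4. It fell with VGLL2-NCOA2 (-1.31 ± 0.12, limma adjusted p = 1.77e-05) and YAP5SA (-1.57 ± 0.12, limma adjusted p = 2.42e-06). TEAD1-NCOA2 gave -0.98 ± 0.12, limma adjusted p = 8.56e-05, just under the threshold on size. On the TPM scale the VGLL2-NCOA2 and YAP5SA differences were -0.72 and -0.80, and the VGLL2-NCOA2 difference was -0.85 after the correction for length and GC content and -0.84 after quantile normalization, none of which were calls. RAB1A, its close paralog in the same step, was -0.06 ± 0.13, limma adjusted p = 0.704 in VGLL2-NCOA2 cells, -0.09 ± 0.13, limma adjusted p = 0.60 with TEAD1-NCOA2 and -0.56 ± 0.13, limma adjusted p = 0.00339 with YAP5SA, and 0.23 for YAP5SA on the TPM scale.

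RAB18, a RAB of the ER and lipid droplets, was the RAB gene of this group that was higher with all 3 plasmids by the adjusted p. It was at 4.8, 4.2 and 4.56 FPKM in control, 6.37, 6.84 and 6.78 in VGLL2-NCOA2 cells, 7.37, 7.56 and 6.95 with TEAD1-NCOA2 and 5.55, 5.81 and 5.08 with YAP5SA, with no overlap with control. The difference was largest with TEAD1-NCOA2 (0.59 ± 0.07, limma adjusted p = 0.000108). On the TPM scale it was 1.1, 1.14 and 1.02 with the 3 plasmids, all calls. RAB6B, a Golgi RAB best known from neurons, was -0.25 ± 0.07, -0.80 ± 0.07 and -0.42 ± 0.07, lowest with TEAD1-NCOA2 (limma adjusted p = 1.74e-05), and overlaps the oppositely transcribed SRPRB. RAB34, which also acts in cilium formation, was -0.82 ± 0.19, limma adjusted p = 0.00392 with VGLL2-NCOA2, while the other plasmids did not pass the adjusted p. RAB2A and RAB2B, which act at the Golgi, RAB6A, of retrograde Golgi transport, RAB33B and RAB36 had log2 differences between -0.60 and 0.15, and those of RAB2A, RAB6A and RAB33B with YAP5SA were positive on the TPM scale.

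Of the 16 RAB genes of early and recycling endosomes 13 were tested, and the calls were RAB20 with TEAD1-NCOA2 and RAB11A with YAP5SA, both lower. RAB11A, the main RAB of recycling endosomes, was at 29.5, 27 and 25.8 FPKM in control and 20.001, 20.1 and 21.5 with VGLL2-NCOA2. It was at 20.9, 20.5 and 20.1 with TEAD1-NCOA2 and 14.3, 14.6 and 9.68 with YAP5SA. The fusions lay just below control and YAP5SA below both. The log2 difference with YAP5SA was -1.05 ± 0.13, limma adjusted p = 5.32e-05, but -0.88 without YAP5SA replicate 3, -0.74 after quantile normalization and -0.30 on the TPM scale, no longer calls. RAB11A overlaps the oppositely transcribed DENND4A. RAB11B was -0.96 ± 0.13 with VGLL2-NCOA2 and -0.91 ± 0.13 with YAP5SA, just under the threshold on size.

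RAB20, a RAB of phagosomes and early endosomes, was at 2.64, 2.47 and 5.01 FPKM in control, 2.02, 1.77 and 1.22 in VGLL2-NCOA2 cells, 0.59, 1.55 and 0.869 with TEAD1-NCOA2 and 1.56, 1.71 and 1.21 with YAP5SA. Control replicate 3 was the highest library, and every plasmid library lay below the control range. The call with TEAD1-NCOA2 (-1.11 ± 0.23, limma adjusted p = 0.00272) was -0.86 without control replicate 3, -0.96 without TEAD1-NCOA2 replicate 1 and -0.75 after the correction for length and GC content, and then no call.

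RAB22A, which acts between early endosomes and the plasma membrane, was higher by the adjusted p with each plasmid. It was at 2.01, 2.05 and 1.46 FPKM in control, 2.72, 2.66 and 2.79 in VGLL2-NCOA2 cells, 2.74, 3.14 and 3.0 with TEAD1-NCOA2 and 3.84, 4.12 and 4.02 with YAP5SA. The groups against control did not overlap, and YAP5SA was highest (0.82 ± 0.09, limma adjusted p = 2.63e-05). That difference became a call on the TPM scale, at 1.74, and with a pseudocount of 0.1, at 1.09, and those of the fusions were 1.04 and 1.06 on the TPM scale, also calls. RAB4A, a RAB of fast recycling, was -0.92 ± 0.15, limma adjusted p = 0.000384 with YAP5SA. RAB5A and RAB5C, of early endosome fusion, and RAB14 and RAB15 did not pass the adjusted p with any plasmid, whereas RAB5B was 0.29 ± 0.09, limma adjusted p = 0.0198 with TEAD1-NCOA2. RAB31, which acts between the Golgi and endosomes, was -0.78 ± 0.10, limma adjusted p = 6.70e-05 with YAP5SA and 0.06 ± 0.10 with TEAD1-NCOA2. RAB21, which guides integrin uptake, was 0.19 ± 0.07, limma adjusted p = 0.0348 with VGLL2-NCOA2, and RAB35, of endosome recycling, -0.40 ± 0.14, limma adjusted p = 0.0373, which was 0.19 on the TPM scale.

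All 5 RAB genes of cilia and of the SOCS-box type were tested, and their differences from control stayed under the threshold on size. By the adjusted p alone 1 was higher and 1 lower with VGLL2-NCOA2, 2 were lower with TEAD1-NCOA2, and 2 were higher and 2 lower with YAP5SA. RAB23, a negative regulator of Hedgehog signalling, was at 2.99, 2.03 and 2.91 FPKM in control and 4.59, 4.75 and 5.44 with YAP5SA, above every control library (0.71 ± 0.12, limma adjusted p = 0.000497). RAB40 proteins carry a SOCS box and serve in Cullin 5 ubiquitin ligases. RAB40A was 0.77 ± 0.15, limma adjusted p = 0.00113, RAB40B -0.89 ± 0.14, limma adjusted p = 0.000305 and RAB40C -0.50 ± 0.10, limma adjusted p = 0.00162 with YAP5SA, the last with 0.25 on the TPM scale. RAB40A reached 1 FPKM in 5 libraries, all of VGLL2-NCOA2 or YAP5SA. It passed the filter only through the groups where it was high, so that its p-value is not free of that selection. RAB28, known from photoreceptor outer segments, did not pass the adjusted p with any plasmid.

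Levels of some related RAB genes shifted against each other, while other pairs overlapped control with at least 1 plasmid. The FPKM ratio of RAB39A to RAB39B was 0.0263 to 0.415 in control, 1.58 to 2.07 in VGLL2-NCOA2 cells, 0.727 to 2.04 with TEAD1-NCOA2 and 6.98 to 11.3 with YAP5SA. RAB39B was thus the main form in control and RAB39A in every VGLL2-NCOA2 and YAP5SA library. Their sum was 6.63 ± 1.13 FPKM in control, 13.2 ± 0.657 in VGLL2-NCOA2 cells, 3.9 ± 0.447 with TEAD1-NCOA2 and 11.1 ± 1.74 with YAP5SA. The ratio of RAB32 to RAB38, chosen after the values were seen, was 2.03 to 7.36 in control and 4.46 to 7.42 with VGLL2-NCOA2, which overlap. With TEAD1-NCOA2 it was 49.2 to 167 and with YAP5SA 65.7 to 199.6. The ratio of RAB1A to RAB1B was 0.391 to 0.61 in control and 0.97 to 1.31, 0.86 to 0.979 and 0.80 to 1.14 with the 3 plasmids. That of RAB3B to RAB3A was 0.0838 to 0.178 in control and 0.351 to 0.577, 0.376 to 0.446 and 0.518 to 0.881. Other pairs overlapped control in part. RAB5A to RAB5B was 1.08 to 1.43 in control and 1.21 to 1.33 with VGLL2-NCOA2. RAB6A to RAB6B was 2.04 to 2.25 in control and overlapped it with VGLL2-NCOA2 and YAP5SA. RAB11A to RAB11B overlapped control with TEAD1-NCOA2 and YAP5SA, and RAB2A to RAB2B with TEAD1-NCOA2. With the remaining plasmids these pairs lay apart from control. A ratio within a library does not depend on how the library was scaled. The ratios were not corrected for GC content or gene length, with which differences correlated (below). RAB1A and RAB1B, for example, have 38.3 and 61.1% GC. The groups that did not overlap are a description. Exact permutation tests of log2 ratios gave p = 0.1 for RAB39A to RAB39B, RAB32 to RAB38, RAB1A to RAB1B and RAB3B to RAB3A. All were against control, and the exception was RAB32 to RAB38 with VGLL2-NCOA2 (exact permutation test p = 0.3). The overlapping ratios of the other pairs gave an exact permutation test p of 0.2 or more. With 3 libraries per group this exact permutation test cannot give a p below 0.1, so it cannot reach 0.05.

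**Figure D5:**
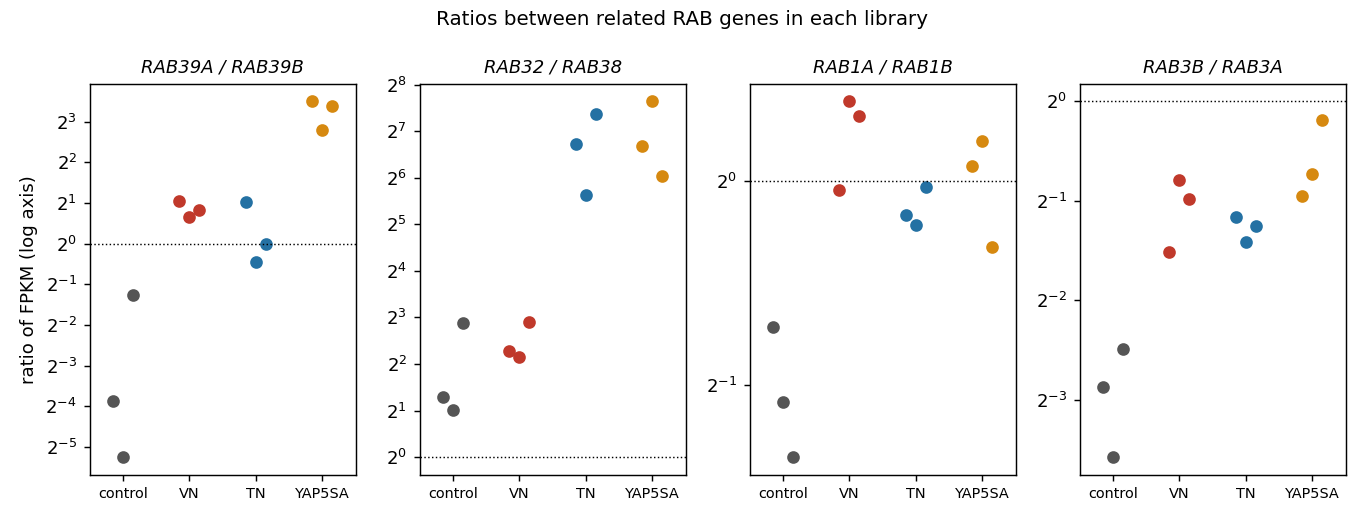
FPKM ratio of RAB paralogs in each library (points, log axis), for control, VGLL2-NCOA2 (VN), TEAD1-NCOA2 (TN) and YAP5SA, where the dotted line marks equal levels. The RAB39A to RAB39B ratio runs from 0.0263 to 0.415 in control to 6.98 to 11.3 with YAP5SA, and the RAB32 to RAB38 ratio is at least 49.2 in every TN and YAP5SA library.

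The 2 fusions differed from each other in RAB genes. VGLL2-NCOA2 against TEAD1-NCOA2 gave 6 called RAB genes of 47, all higher with VGLL2-NCOA2, where 1.97% of all genes were called and 1.6% were called higher. They were RAB39A (1.64 ± 0.26, limma adjusted p = 0.00216), RAB26 (1.43 ± 0.14, limma adjusted p = 0.000131), RAB38 (1.25 ± 0.26, limma adjusted p = 0.00791), RAB3A (1.17 ± 0.14, limma adjusted p = 0.000418), RAB3B (1.04 ± 0.12, limma adjusted p = 0.000325) and RAB39B (1.04 ± 0.19, limma adjusted p = 0.00403). In each of the 6 genes the lowest VGLL2-NCOA2 library lay above the highest TEAD1-NCOA2 library, as in 36.5% of all genes tested and 31.9% of RAB genes. The 6 were picked as called from these same libraries, so that this is a description and no added support. RAB38 passed the filter only through control and VGLL2-NCOA2, so its tests here and against YAP5SA are not free of that selection. 3 act in secretion and 3 at late endosomes or lysosome-related organelles. RAB39B was 0.97 without VGLL2-NCOA2 replicate 2 and 0.92 without TEAD1-NCOA2 replicate 1, no longer calls. After quantile normalization RAB3B was 0.82 and RAB39B 0.83, which ended both calls. By the adjusted p alone 9 RAB genes were higher and 5 lower with VGLL2-NCOA2, where 15.3% of all genes were higher and 4.61% lower. RAB32 was among the lower ones (-0.88 ± 0.15, limma adjusted p = 0.00308).

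Against YAP5SA, VGLL2-NCOA2 gave 4 called RAB genes, 3 higher and 1 lower (4.09% of all genes, 2.04% higher and 2.06% lower). RAB26 (1.90 ± 0.14, limma adjusted p = 1.04e-05), RAB39B (1.47 ± 0.19, limma adjusted p = 0.000287) and RAB38 (1.25 ± 0.26, limma adjusted p = 0.00433) were higher with VGLL2-NCOA2 and RAB32 (-1.17 ± 0.15, limma adjusted p = 0.00030) was lower. TEAD1-NCOA2 against YAP5SA gave 1 called RAB gene (5.9% of all genes, 4.17% lower), RAB39A, lower with TEAD1-NCOA2 (-1.84 ± 0.26, limma adjusted p = 0.000383). RAB26, RAB3A, RAB38, RAB39B and RAB32 differed between TEAD1-NCOA2 and YAP5SA by 0.48 ± 0.14, -0.34 ± 0.14, 0.01 ± 0.26, 0.44 ± 0.19 and -0.29 ± 0.15. By the adjusted p alone, 18 RAB genes were higher and 5 lower with VGLL2-NCOA2 than with YAP5SA (16 and 15.3% of all genes), and 16 higher and 9 lower with TEAD1-NCOA2 than with YAP5SA (14 and 26.5%). On the TPM scale these counts were 9 and 5, and 5 and 16 (7.87 and 18.3%, and 5.83 and 38.4% of all genes).

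The proteins that switch and read RABs were followed as a list of 112 genes, of which 101 were tested. VGLL2-NCOA2 gave 2 called higher and 1 lower, TEAD1-NCOA2 2 and 2, and YAP5SA 8 and 1. These 3, 4 and 9 of 101 lay below the 11.3, 9.4 and 20.5% of all genes. Their median log2 difference was 0.20, 0.09 and 0.24, against 0.01, -0.09 and 0.03 over all genes. On the TPM scale the counts of calls were 39 and none, 23 and 1, and 53 and none, where that scale called 29, 19.7 and 41.6% of all genes. EEA1, the RAB5 effector that tethers early endosomes, was higher with all 3 plasmids. It was at 1.86, 1.41 and 1.62 FPKM in control, 4.9, 5.04 and 4.59 in VGLL2-NCOA2 cells, 5.05, 4.39 and 4.8 with TEAD1-NCOA2 and 5.22, 5.04 and 5.53 with YAP5SA. No plasmid library came near control, and the largest difference was that with YAP5SA (1.25 ± 0.08, limma adjusted p = 1.35e-06). After the correction for length and GC content the differences were 0.71, 0.68 and 0.85, under the threshold on size. The RAB11 effector RAB11FIP1 was called with VGLL2-NCOA2 (1.23 ± 0.15, limma adjusted p = 9.44e-05) and YAP5SA (1.06 ± 0.15, limma adjusted p = 0.000149), and RAB11FIP2 with TEAD1-NCOA2 (1.29 ± 0.14, limma adjusted p = 4.62e-05) and YAP5SA (1.11 ± 0.14, limma adjusted p = 5.30e-05). The correction ended both YAP5SA calls (0.84 and 0.91).

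RILP, the RAB7 effector that links lysosomes to dynein, was at 4.49, 4.56 and 3.51 FPKM in control. It was at 1.73, 1.56 and 1.41 in VGLL2-NCOA2 cells, 0.821, 1.06 and 0.684 with TEAD1-NCOA2 and 2.86, 2.52 and 1.08 with YAP5SA. It fell with VGLL2-NCOA2 (-1.01 ± 0.20, limma adjusted p = 0.00185) and TEAD1-NCOA2 (-1.48 ± 0.20, limma adjusted p = 0.000208). The correction brought these to -0.38 (limma adjusted p = 0.0644) and -0.84, neither a call. The VGLL2-NCOA2 call was also lost on the TPM scale (-0.71) and on leaving out replicate 1 or 2 of control or replicate 3 of VGLL2-NCOA2 (-0.96, -0.96 and -0.96). Its relative RILPL2 fell with TEAD1-NCOA2 (-1.06 ± 0.13, limma adjusted p = 0.000127). That call was lost on the TPM scale (-0.88), after quantile normalization (-0.96) and without TEAD1-NCOA2 replicate 1 (-0.98). SYTL1, an effector of RAB27, fell with YAP5SA (-1.13 ± 0.10, limma adjusted p = 7.43e-06), and was -0.87, no call, on the TPM scale. With YAP5SA the largest rise on the list was that of TBC1D5, a GAP of RAB7, from 2.49, 1.93 and 1.53 FPKM to 7.2, 7.91 and 8.04 (1.56 ± 0.11, limma adjusted p = 1.79e-06). RIC1, part of the RAB6 GEF, RABGAP1, a GAP, OCRL, a phosphatase that binds many RABs, and CHM, the escort protein for RAB prenylation, also rose with YAP5SA, by 1.31 ± 0.11, 1.12 ± 0.09, 1.05 ± 0.12 and 1.04 ± 0.10. After the correction RABGAP1, OCRL and CHM were at 0.83, 0.94 and 0.72 and SYTL1 at -0.66, no longer calls. Without YAP5SA replicate 3 the calls of OCRL, CHM and RAB11FIP1 were lost (0.94, 0.99 and 0.99), and 6 listed genes were called with YAP5SA (17.2% of all genes). Between plasmids, SYTL5, another RAB27 effector, was higher with VGLL2-NCOA2 than with TEAD1-NCOA2 (1.12 ± 0.15, limma adjusted p = 0.00107). After quantile normalization it was 0.93, no longer a call. RILPL1 was lower with TEAD1-NCOA2 than with YAP5SA (-1.04 ± 0.10, limma adjusted p = 5.52e-05). That call was lost after quantile normalization (-0.88), after the correction (-0.997), and without TEAD1-NCOA2 replicate 2 (-0.99) or YAP5SA replicate 1 (-0.96). USO1, the tether that RAB1 recruits, was higher with TEAD1-NCOA2 than with YAP5SA, at 34.4, 36 and 36.2 against 15.6, 16.8 and 15.5 FPKM (1.11 ± 0.07, limma adjusted p = 4.74e-06). On the TPM scale it was 0.85, no longer a call. After the correction for length and GC content 1, 5 and 4 of the listed genes were called against control, in place of 3, 4 and 9. Of all genes it called 7.41, 6.17 and 16.4%, in place of 11.3, 9.4 and 20.5%.

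Across the 47 RAB genes tested, differences correlated with GC content and gene length, as they did over protein-coding genes. Spearman's rho between the log2 difference and GC content was -0.45 in VGLL2-NCOA2 cells, -0.54 with TEAD1-NCOA2 and -0.32 with YAP5SA, and -0.48, -0.50 and -0.34 over 12016 protein-coding genes. With gene length it was 0.31, 0.31 and 0.34 for RAB genes and 0.48, 0.47 and 0.44 for protein-coding genes. These are correlations over genes of the same libraries and are given as a description. Upstream windows of 250 bases before a RefSeq start were at hand for 50 of the 63 RAB genes. GGGCGG on either strand was in 39 of them (78%), against 42.6% of 35116 windows of the same length. GGAATG was in 6 (12%), against 11.9%. The 35116 windows were taken without a limit to protein-coding genes or to 1 per gene, unlike those of the RAB genes. A match only says that the letters are there.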

How the data were processed

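Paired-end mRNA libraries (SMARTER kit) were made from column-purified RNA of transfected HEK293T cells. The study's methods describe the 3 replicates of a group as processed independently, without saying whether they were separate transfections, so the p-values reflect a spread that may be technical in part. Per the file headers, the values deposited by the authors are FPKM per gene, in 1 table per group. Aligner, counter and strand setting were not given in the sources used here, and the builds in the submitters' notes are those of mouse, while identifiers and coordinates are human and equal those of GENCODE 29 for 58724 of 58735 genes.

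Genes that reached 1 FPKM in 3 or more of 12 libraries were fitted in limma 3.58.1 (R 4.3.3) as log2(FPKM + 1), with group means over all libraries, a trended prior, 2-sided tests and no replicate block. The scale understates the change of low genes. The 6 comparisons share groups, and those against control share the 3 control libraries. Values of FPKM times gene length were whole fragments, within 0.05 up to 20 fragments, in 9 libraries, which allowed a limma-voom fit. The fit was tested on simulated data. GC content came from GENCODE transcripts, and upstream windows came from RefSeq (GRCh38.p14), cut short where the start given in the tables lay further upstream.

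Named RAB genes were those called in any comparison, the 3 highest and 3 lowest differences from control, the 5 most abundant in control, and their lettered paralogs. Of the regulators, up to 4 called genes per class and comparison were named. Other genes are given with values for completeness of the family. The members and lists were chosen with earlier results of these data known.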

Additional observations from a re-analysis of the deposited data

How the results depend on the processing

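Of 68 differences of named RAB genes, 28 were called. None of these 28 changed direction under an alternative that could be fitted, and 20 kept their side of the threshold, with the 8 others named in the report. Among the 40 not called, 17 changed direction under at least 1 alternative, 16 of them on the TPM scale. On that scale RAB1A, RAB7A and RAB10 were at 0.54, 0.53 and 0.18 with VGLL2-NCOA2, 0.42, 0.43 and 0.14 with TEAD1-NCOA2 and 0.23, 0.36 and 0.19 with YAP5SA. RAB11A was at 0.19 and 0.10 with the fusions, RAB3D at 0.37 with YAP5SA, and RAB26, RAB29, RAB38 and RAB39B at 0.058, 0.38, 0.48 and 0.32 with VGLL2-NCOA2. After quantile normalization RAB1A and RAB7A were at 0.29 and 0.40 with VGLL2-NCOA2 and 0.24 and 0.35 with TEAD1-NCOA2, RAB10 at 0.010 with TEAD1-NCOA2 and RAB7A at 0.28 with YAP5SA. With limma-voom RAB1A and RAB7A were at 0.22 and 0.21 and at 0.17 and 0.18 with the fusions, and RAB29, RAB38 and RAB39B at 0.060, 0.23 and 0.015 with VGLL2-NCOA2. With the correction for length and GC content, with or without the replicate block, RAB38 was at 0.016 with VGLL2-NCOA2 and RAB3B at -0.050 with YAP5SA. Leaving out libraries moved RAB1A from -0.21 to 0.020 and RAB38 from -0.41 to 0.19 with VGLL2-NCOA2. The counts moved more. For VGLL2-NCOA2 against control, the 2 calls became 5 with a pseudocount of 0.1, 9 on the TPM scale, 6 with limma-voom on fragments, and 1 each after quantile normalization, with the correction for length and GC content, with that correction and the replicate block, and among genes with at least 1 FPKM in all 3 control libraries. Of all genes these settings called 19.6, 29, 23.8, 8.47, 7.41, 7.47 and 10.2% in that order, where the main fit called 11.3%. With the filter on control, chosen after seeing the data, 43 RAB genes were tested, and RAB39A and the other genes that pass through few groups drop out. The 23 RAB genes past the adjusted p alone became 15 after quantile normalization. For TEAD1-NCOA2 against control, 6 calls became 10 on the TPM scale (19.7% of all genes). For YAP5SA against control 9 became 15 with a pseudocount of 0.1 (30.1% of all genes). For TEAD1-NCOA2 against YAP5SA, 1 call became 3 with a pseudocount of 0.1 and 3 on the TPM scale (11.9 and 16.3% of all genes). The call was lost with the filter on control (0, and 4.29% of all genes), where RAB39A was not tested. For VGLL2-NCOA2 against TEAD1-NCOA2, the 14 past the adjusted p alone became 22 with only the groups compared. For VGLL2-NCOA2 against YAP5SA, 23 became 14 on the TPM scale. Beyond these constructions the cause was not tested. Leaving out libraries gave 2 to 3, 5 to 8 and 8 to 11 calls against control and 16 to 29, 16 to 30 and 29 to 34 genes past the adjusted p, for VGLL2-NCOA2, TEAD1-NCOA2 and YAP5SA. For VGLL2-NCOA2 against TEAD1-NCOA2 the ranges were 5 to 6 and 10 to 22, with 22 without control replicate 3 and YAP5SA replicate 3 together. For VGLL2-NCOA2 against YAP5SA they were 4 to 6 and 14 to 25, with 15 without VGLL2-NCOA2 replicate 2 and 14 without replicate 3, and for TEAD1-NCOA2 against YAP5SA 1 call throughout and 17 to 30. Calls over all genes on leaving out libraries ranged from 9.99 to 13.3, 7.94 to 11.2 and 17.2 to 23.1% against control. Between plasmids they ranged from 1.72 to 2.47, 3.73 to 4.48 and 5.07 to 6.58%. Replicate numbers did not pair the libraries (correlations of deviations from -0.05 to 0.27, with 3 of 18 pairs over 0.1, and 7 libraries closest to their own number). With a replicate block the calls were 2, 6 and 9 against control and 6, 4 and 1 between plasmids, and those past the adjusted p 22, 22, 33, 13, 22 and 22. Of all genes that block called 11.4, 9.51, 20.6, 1.99, 4.14 and 5.91%. The limma-voom fit was not run for the 3 comparisons with YAP5SA, whose fragments could not be recovered. Depth limits RAB20, RAB26, RAB38, RAB39A and RAB40A, which stood on under 50 fragments in 2 or more of the 9 libraries with whole fragments.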
